A study of Mus musculus with 6 samples.

Results

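Lipoprotein receptors and the proteins that carry cholesterol through the lysosome were examined in whole mouse ovaries by RNA-seq. The 8 genes are Scarb1, Scarb2, Vldlr, Lrp1, Lrp8, Npc1, Npc2 and Apoe, found by symbol among the 44788 genes listed, and all 8 had enough reads to be tested. They were chosen by name with their expression in these same ovaries already known. Their difference between genotypes is therefore given below as a description, without p-values. Where the text says which of them passed the threshold of the test across all genes, it says where they stood and nothing more.

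The study compared 3 ovary libraries of wild-type (WT, Bnc1+/+) mice with 3 of Bnc1tr/tr mice, all 8 weeks old and of strain C57BL/6 J. Bnc1 encodes basonuclin 1, a zinc finger protein of germ cells and epithelia. The Bnc1tr allele carries a small deletion that shifts the reading frame and truncates the protein, it is present in every cell of the body, and the homozygotes came from matings between heterozygotes, as the study describes. Each library is the total RNA of ovarian tissue, so it pools oocytes, follicles, corpora lutea, stroma and vessels. Nothing in the labels says how many animals gave each library or where in the cycle they were. An ovary with a number, below, means 1 library, which may hold more than 1 ovary.

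Ovarian steroid-producing cells take most of their cholesterol from lipoproteins in the blood. Scavenger receptor class B type 1 (SR-BI, the product of Scarb1) lifts cholesteryl esters out of high-density lipoprotein at the cell surface without swallowing the particle. Endocytic receptors of one large protein family, among them Lrp1, Lrp8 (also called ApoER2) and Vldlr, bind particles that carry apolipoprotein E and bring them into the cell by endocytosis. Inside the lysosome the soluble protein NPC2 hands the freed cholesterol to the membrane protein NPC1, which passes it on to the rest of the cell. LIMP-2, the product of Scarb2, is a lysosomal relative of SR-BI that sorts a lipid-degrading enzyme to that compartment.

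RefSeq promoter windows on the GRCm38.p6 build, running from 250 bases before to 50 after a transcription start, were found for 6 of the 8 genes. Scarb1 and Npc1 had no entry. The part that lies before the start and in no annotated exon is printed 5′ to 3′ on the gene's own strand for Npc2, whose reads were lower in all Bnc1tr/tr ovaries, and for Lrp1, whose reads were higher in all of them. Capitals mark the Sp1 box GGGCGG and the CCAAT box CCAAT, each on either strand. The first stretch is chr12:84773153-84773250 (minus strand) and the second is chr10:127621149-127621398 (minus strand).
Npc2: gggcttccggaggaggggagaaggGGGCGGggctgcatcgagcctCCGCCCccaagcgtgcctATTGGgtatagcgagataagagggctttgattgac
Lrp1: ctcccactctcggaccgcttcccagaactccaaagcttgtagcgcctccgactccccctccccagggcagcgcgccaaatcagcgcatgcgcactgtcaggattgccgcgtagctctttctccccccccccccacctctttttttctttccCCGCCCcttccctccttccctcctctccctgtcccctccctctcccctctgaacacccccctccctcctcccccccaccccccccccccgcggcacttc

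The printed Npc2 stretch held 2 Sp1 boxes and 1 CCAAT box, and the whole Npc2 window held 3 and 2. The Lrp1 window held 1 Sp1 box. Among all 32851 promoter windows of the same length, 35.7% held an Sp1 box and 37.4% a CCAAT box, so both are common letters. The sterol regulatory element core CACCCCAC (2.87% of all windows) and the cyclic AMP response element TGACGTCA (1.79%) were not in any window of the 6 genes. The steroidogenic factor motif AAGGTCA (4.72%) was in 1 window, the last of 3 start sites of Lrp8. The 98 bases printed for Npc2 lie between the first exon of Npc2 and that of Isca2, a gene for mitochondrial iron-sulfur cluster assembly that is read in the opposite direction. Isca2, named for that position with its values seen, gave 31.6, 32.5 and 30.7 CPM (reads per 1000000 counted reads of the library) in the WT ovaries and 18.9, 23.7 and 24.4 CPM in the mutant ovaries. It was lower with an adjusted p of 0.0423 in edgeR's quasi-likelihood test, and passed in 5 of 12 alternatives, with an adjusted p of 0.0531 to 0.164 on leaving out any 1 ovary.

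The libraries held 25247770 to 34406296 counted reads. Of 19423 genes tested, 1372 passed an adjusted p of 0.05 in edgeR (7.06%), of which 813 were lower in Bnc1tr/tr (4.19% of the genes tested) and 559 higher (2.88%). Scaling by library size alone turned this split to 616 lower and 1112 higher, and moved the median log2 fold change of all genes from 0.018 to 0.12. Bnc1 itself had 375, 444 and 381 reads in WT and 527, 355 and 326 reads in the mutant. The groups overlapped, and a total over the gene cannot show a small deletion, so it is no check of the genotype labels. Markers of granulosa cells, theca cells, oocytes and luteal cells were present in all 6 libraries. In bulk tissue, fewer cells of a type and less RNA per cell cannot be told apart.

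Scarb1 was the most abundant of the 8 genes in the WT ovary and fell furthest in the Bnc1tr/tr ovary. Expression is given in CPM, scaled between libraries by the trimmed mean of M-values (TMM). Scarb1 (ENSMUSG00000037936.15) lies at chr5:125277087-125341094 on the minus strand of GRCm38. It gave 2337, 2759 and 2626 CPM in the 3 WT ovaries and 633, 739 and 755 CPM in the 3 Bnc1tr/tr ovaries. The groups were far apart, and neither held an ovary that stood out. The mean was 2574 ± 216 CPM (SD, n = 3) in WT and 709 ± 66.1 CPM (SD, n = 3) in Bnc1tr/tr, or 27.5% of the WT level, a log2 fold change of -1.86 with an SE of 0.12. By mean CPM, Scarb1 ranked 11 of all genes in WT and 100 in Bnc1tr/tr, and 173 of the genes tested had a lower fold change. The difference ranged from -1.93 to -1.76 on the log2 scale over 12 other ways of scaling, filtering, testing or leaving out 1 ovary.

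**Figure D1:**
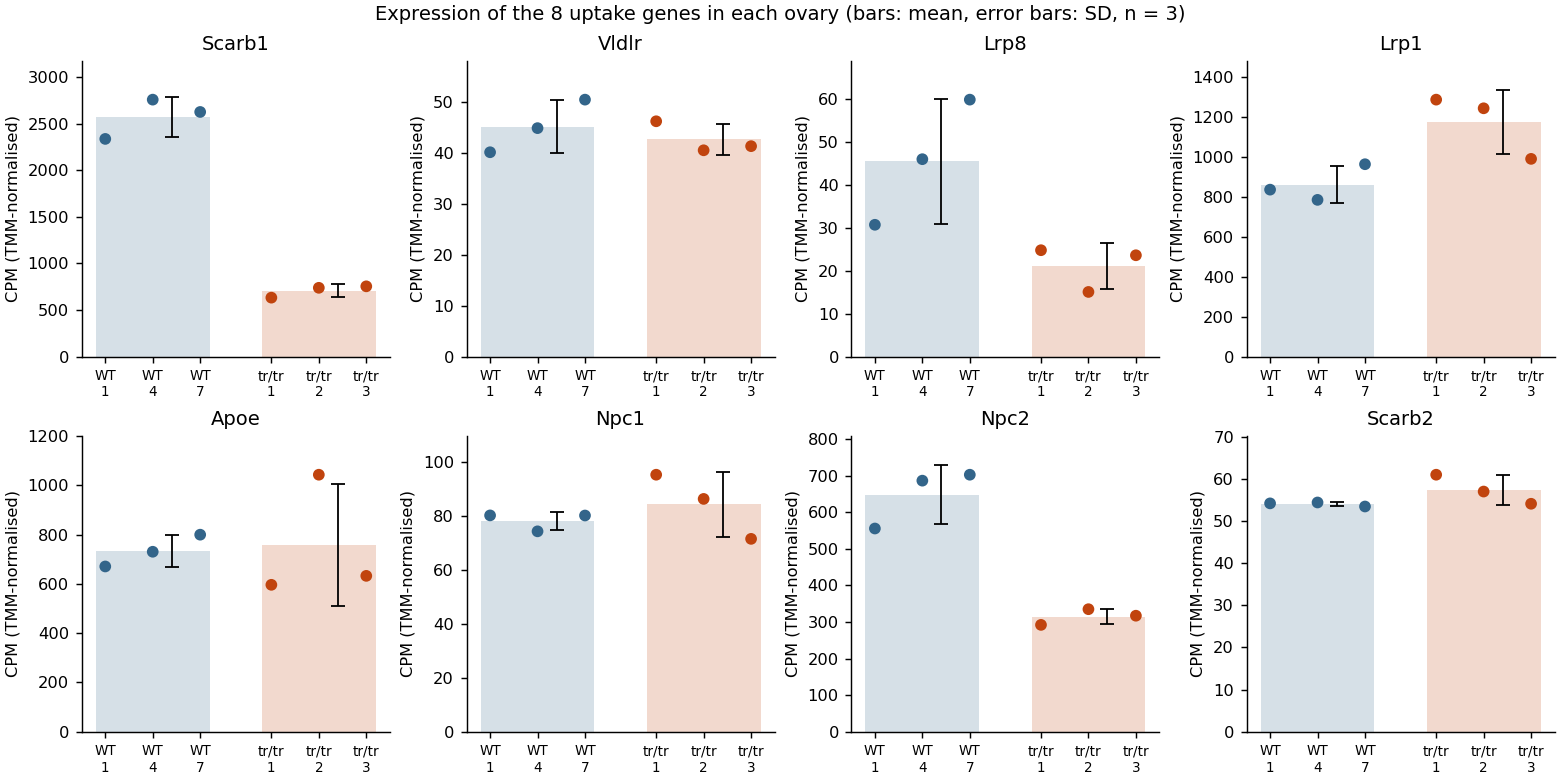
Expression of each of the 8 genes in each ovary, in TMM-normalised CPM on the y axis from 0, with WT ovaries in blue and Bnc1tr/tr ovaries in orange (bars are means and error bars the SD, n = 3). Scarb1, Npc2 and Lrp8 were lower in every Bnc1tr/tr ovary than in any WT ovary, Lrp1 was higher in every one, and the other 4 genes overlapped.

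Among the endocytic lipoprotein receptors, Lrp8 was lower and Lrp1 higher in the Bnc1tr/tr ovaries, while Vldlr overlapped between the groups. Lrp8, a receptor for reelin as well as for apolipoprotein E, lies at chr4:107802261-107876840 on the plus strand (ENSMUSG00000028613.14). It gave 30.7, 45.9 and 59.8 CPM in the WT ovaries and 24.8, 15.1 and 23.6 CPM in the Bnc1tr/tr ovaries. The groups did not overlap, but the lowest WT ovary lay close to the highest Bnc1tr/tr ovary. The means were 45.5 ± 14.6 CPM in WT and 21.1 ± 5.30 CPM in Bnc1tr/tr (SD, n = 3 each), 46.5% of the WT level, with a log2 fold change of -1.10 and an SE of 0.27. Lrp8 was the most variable of the 8 genes among WT ovaries, with a coefficient of variation of 32.0%, against 5.06% or less from counting error alone.

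Lrp1 encodes a very large endocytic receptor with many ligands besides lipoproteins. It lies at chr10:127538161-127621148 on the minus strand (ENSMUSG00000040249.15) and gave 836, 785 and 964 CPM in the WT ovaries against 1287, 1244 and 990 CPM in the Bnc1tr/tr ovaries. Every Bnc1tr/tr ovary lay above every WT ovary, though Bnc1tr/tr ovary 3 was only just above WT ovary 7. The means were 862 ± 91.9 CPM and 1174 ± 160 CPM (SD, n = 3 each), a log2 fold change of 0.45 with an SE of 0.13. Lrp1 did not pass the threshold in edgeR with TMM scaling, and it did so with library size alone and in DESeq2.

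Vldlr, which binds triglyceride-rich particles and reelin, lies at chr19:27216484-27254231 on the plus strand (ENSMUSG00000024924.14). It gave 40.2, 44.9 and 50.5 CPM in the WT ovaries and 46.3, 40.6 and 41.4 CPM in the Bnc1tr/tr ovaries. All 3 mutant values fell within the WT range. The log2 fold change was -0.081 with an SE of 0.11, and its sign turned to 0.017 under scaling by library size alone. At the read level, the ratio of Lrp8 to Vldlr counts within an ovary was 0.763, 1.02 and 1.18 in WT and 0.535, 0.371 and 0.570 in Bnc1tr/tr. The ratio of Lrp1 to Vldlr counts was 20.8, 17.5 and 19.1 in WT and 27.8, 30.7 and 23.9 in Bnc1tr/tr. These ratios need no scaling between libraries, and neither overlapped between the genotypes. The ratio of Lrp1 to Apoe counts did overlap, at 1.25, 1.07 and 1.20 in WT and 2.16, 1.19 and 1.56 in Bnc1tr/tr. The genes were chosen with this contrast known, so nothing more is read from the ratios.

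The ligand gene Apoe differed less between the genotypes than among the mutant ovaries. It lies at chr7:19696109-19699188 on the minus strand (ENSMUSG00000002985.16). Apoe gave 671, 731 and 800 CPM in the WT ovaries and 597, 1044 and 633 CPM in the Bnc1tr/tr ovaries. Bnc1tr/tr ovary 2 was the highest of all 6, and the other mutant ovaries were the lowest. The means were 734 ± 64.6 CPM and 758 ± 248 CPM (SD, n = 3 each). The log2 fold change of 0.046 (SE 0.21) turned to -0.26 without Bnc1tr/tr ovary 2 and to -0.022 without WT ovary 1. Macrophages are a rich source of apolipoprotein E, and the summed level of 12 macrophage markers stood in the Bnc1tr/tr ovaries at 66.5%, 132% and 74.1% of the WT mean, beside 81.3%, 142% and 86.2% for Apoe. Lyz2, named as the largest part of that sum, gave 214, 270 and 220 CPM in WT and 170, 354 and 162 CPM in Bnc1tr/tr. The list's first marker, Adgre1, gave 13.3, 12.7 and 16.2 CPM in WT and 8.57, 14.4 and 9.48 CPM in Bnc1tr/tr. Its second, Csf1r, gave 60.5, 52.2 and 58.2 CPM in WT and 38.7, 55.3 and 37.4 CPM in Bnc1tr/tr. In Bnc1tr/tr ovary 2 both Adgre1 and Csf1r were therefore within the WT range, unlike Apoe and the sum. The part of macrophage RNA in the Apoe level was not tested.

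In the lysosome, the transcript of the soluble carrier was lower in the mutant and those of both membrane proteins overlapped. Npc2, at chr12:84754562-84773152 on the minus strand (ENSMUSG00000021242.9), gave 556, 686 and 703 CPM in the WT ovaries and 292, 335 and 317 CPM in the Bnc1tr/tr ovaries. The highest mutant ovary was well under the lowest WT ovary. The means were 648 ± 80.6 CPM and 315 ± 21.5 CPM (SD, n = 3 each), or 48.6% of the WT level, with a log2 fold change of -1.04 and an SE of 0.12. Over the 12 alternatives the log2 fold change of Npc2 ranged from -1.15 to -0.94.

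Npc1, at chr18:12189692-12236400 on the minus strand (ENSMUSG00000024413.14), gave 80.3, 74.4 and 80.3 CPM in the WT ovaries and 95.4, 86.4 and 71.6 CPM in the Bnc1tr/tr ovaries. The mutant ovaries lay on both sides of the WT ovaries. The log2 fold change was 0.11 with an SE of 0.11. Of the exon bases of Npc1, 192 (3.68%) are shared with Rmc1 and 90 (1.72%) with Gm15956 on the other strand, and whether counting used strand is not given in the sources used here. Npc2 counts were 6.92, 9.23 and 8.75 times those of Npc1 in the WT ovaries and 3.06, 3.88 and 4.43 times in the Bnc1tr/tr ovaries, without overlap.

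Scarb2, at chr5:92441314-92506833 on the minus strand (ENSMUSG00000029426.8), varied least. It gave 54.2, 54.4 and 53.5 CPM in the WT ovaries and 61.0, 57.0 and 54.1 CPM in the Bnc1tr/tr ovaries. WT ovary 4 lay just above Bnc1tr/tr ovary 3, so the groups overlapped by a narrow margin. The log2 fold change was 0.087 with an SE of 0.078. Scarb1 and Scarb2 belong to one protein family, and within an ovary Scarb1 counts were 43.1, 50.7 and 49.1 times those of Scarb2 in WT and 10.4, 13.0 and 14.0 times in Bnc1tr/tr.

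**Figure D2:**
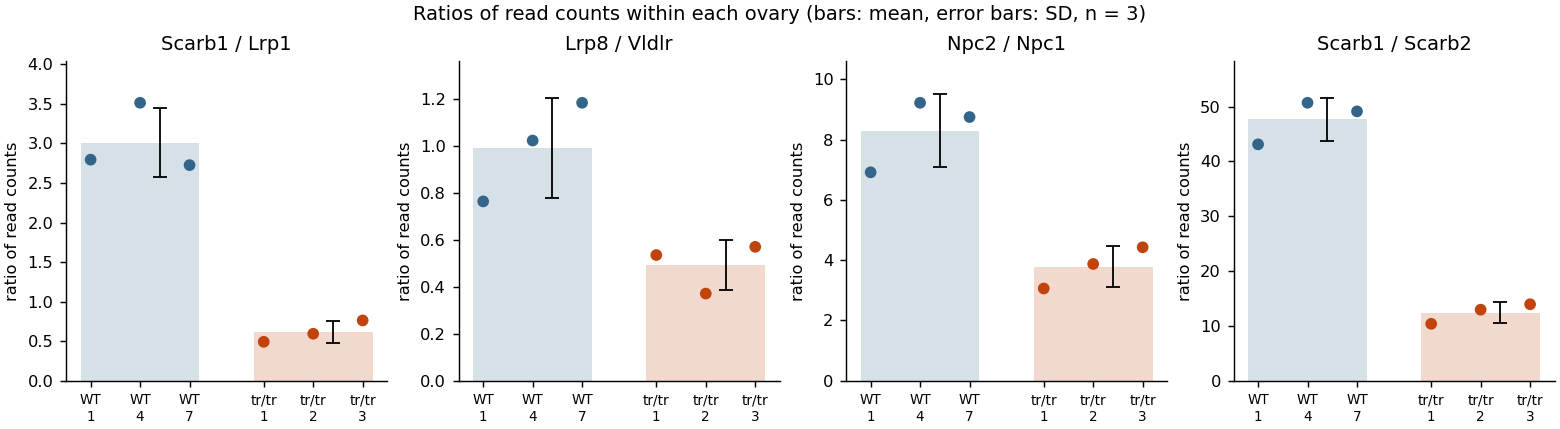
Ratios of read counts between pairs of genes within each ovary, on linear axes from 0, with WT ovaries in blue and Bnc1tr/tr ovaries in orange (bars are means and error bars the SD, n = 3). Scarb1 over Lrp1, Lrp8 over Vldlr, Npc2 over Npc1 and Scarb1 over Scarb2 were each lower in every Bnc1tr/tr ovary than in any WT ovary. The ratio of Lrp1 to Apoe counts, which overlapped, is not drawn.

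Of the 8 genes, 3 passed the edgeR threshold as lower (Scarb1, Lrp8 and Npc2) and 0 as higher, in a contrast where 4.19% and 2.88% of all genes did so. By the values alone, 3 of the 8 had every WT ovary above every mutant ovary, where 15.8% of all genes did, and 1 had every mutant ovary above, where 15.0% of all genes did. As the genes were chosen by name with this contrast known, nothing is read from these shares. The median log2 fold change over the 8 genes was -0.018 beside 0.018 over all genes tested. Just inside the threshold stood Lrp8, with a log2 fold change of -1.10, and just outside it Lrp1, with 0.45. Lrp8 passed in only 5 of the 12 alternatives. It missed the threshold with library size alone, in limma-voom, and without WT ovary 4, WT ovary 7 or any 1 of the Bnc1tr/tr ovaries, where its log2 fold change was -1.23 to -0.87.

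The shares of the 8 genes in their joint reads differed as well, and such shares depend on each other. Together they took 0.441%, 0.498% and 0.521% of all counts in WT and 0.314%, 0.366% and 0.300% in Bnc1tr/tr. Scarb1 made up 50.7%, 53.2% and 49.2% of the reads on the 8 genes in WT, and 20.9%, 20.8% and 26.2% in Bnc1tr/tr. Lrp1 made up 18.2%, 15.2% and 18.1% in WT and 42.4%, 34.9% and 34.3% in Bnc1tr/tr. A fall of Scarb1 alone raises the shares of the other genes, so the share of Lrp1 overstates its own change. In CPM, the mean of Lrp1 was 862 in WT and 1174 in Bnc1tr/tr, and it did not pass the edgeR threshold. The ratio of Scarb1 to Lrp1 counts was 2.79, 3.51 and 2.73 in WT and 0.492, 0.594 and 0.762 in Bnc1tr/tr. The HDL receptor thus had more reads than the endocytic receptor in every WT ovary and fewer in every mutant ovary. Longer transcripts give more reads, and the lengths used below were 2521 bases for Scarb1 and 14888 for Lrp1. Per kilobase, Scarb1 stayed above Lrp1 in every mutant ovary, with means of 281 and 78.8 CPM per kb.

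Levels of different genes were compared per kilobase of the longest GENCODE M21 coding transcript marked as principal, as CPM per kb. In WT the order was Scarb1 (1021), Apoe (521), Npc2 (196), Lrp1 (57.9), Npc1 (15.0), Scarb2 (11.5), Lrp8 (9.98) and Vldlr (5.67). Each gene's 3 WT ovaries lay above those of the next gene except for Scarb2 and Lrp8, whose ranges overlapped. In Bnc1tr/tr the order was Apoe (538), Scarb1 (281), Npc2 (95.4), Lrp1 (78.8), Npc1 (16.2), Scarb2 (12.2), Vldlr (5.36) and Lrp8 (4.64). There the ranges of Vldlr and Lrp8 overlapped and those of all other neighbours did not. The order of 2 pairs was therefore the opposite in the mutant: Apoe was above Scarb1, and Vldlr above Lrp8. The length used is that of 1 annotated transcript, and which isoforms these ovaries made is not known. A shorter transcript would raise a gene's level per kb, so the order depends on this choice. For Npc2 the length used was 3299 bases.

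The 3 genes that were lower are set here beside the markers of luteal cells, the steroid-producing cells of the corpus luteum. The summed level of 12 luteal markers was 88.2%, 106% and 106% of the WT mean in the WT libraries and 30.6%, 52.8% and 46.3% in the mutant ones. Most of that sum came from Cyp11a1 and Hsd3b1, which are named for that share. In whole ovaries, reads of these markers cannot be assigned to luteal cells alone. Cyp11a1 gave 9054, 10627 and 10793 CPM in WT and 1975, 4823 and 3843 CPM in Bnc1tr/tr. Hsd3b1 gave 8044, 9027 and 8220 CPM in WT and 3951, 5801 and 5591 CPM in Bnc1tr/tr. Of these 12 markers, 8 were lower, 0 were higher and 4 did not pass the test. Their median log2 fold change was -1.19, 11 were negative, and none was at 0. Akr1c18, Parm1 and Pgr are named because their groups overlapped. Akr1c18 gave 12.2, 49.2 and 103 CPM in WT and 6.72, 71.8 and 17.4 CPM in Bnc1tr/tr. Parm1 gave 56.2, 36.5 and 24.6 CPM in WT and 17.0, 35.3 and 38.4 CPM in Bnc1tr/tr. Pgr gave 0.855, 0.725 and 0.586 CPM in WT and 1.81, 0.616 and 1.69 CPM in Bnc1tr/tr. Lhcgr, the luteinising hormone receptor, gave 544, 800 and 728 CPM in WT and 92.8, 86.0 and 79.0 CPM in Bnc1tr/tr. Prlr, the prolactin receptor, gave 329, 347 and 361 CPM in WT and 79.0, 163 and 138 CPM in Bnc1tr/tr. Scarb1 stood at 24.6%, 28.7% and 29.3% of its WT mean in the same mutant ovaries, below the luteal sum in each. Single markers lay on both sides of it: the log2 fold change was -3.01 for Lhcgr and -1.45 for Prlr, beside -1.86 for Scarb1. Npc2 stood at 45.1%, 51.7% and 48.9%, close to the luteal sum in Bnc1tr/tr ovaries 2 and 3 and above it in Bnc1tr/tr ovary 1. Lrp8 stood at 54.5%, 33.1% and 51.9%, and its lowest mutant ovary was the one with the highest luteal sum. The part of luteal content in these differences was not tested.

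**Figure D3:**
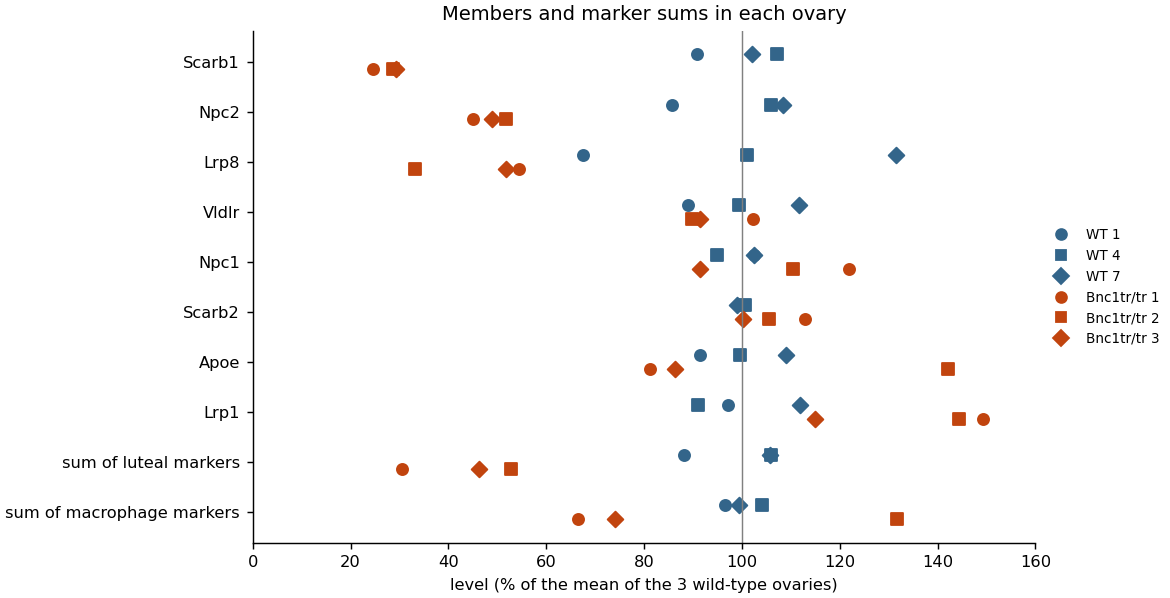
Level of each of the 8 genes and of the summed luteal and macrophage markers in each ovary, as a percentage of the mean of the 3 WT ovaries on the x axis (WT in blue, Bnc1tr/tr in orange, 1 symbol per ovary). Scarb1, Npc2 and the luteal sum were at 24.6% to 52.8% in the Bnc1tr/tr ovaries, while Apoe and the macrophage sum were both highest in Bnc1tr/tr ovary 2.

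Endothelial markers were the other list whose sum did not overlap, at 670 to 854 CPM in WT and 461 to 531 CPM in Bnc1tr/tr, with 4 of 9 markers lower and 1 higher. The sums overlapped for granulosa markers (1 of 12 higher), theca markers (0 of 7 passed), oocyte markers (4 of 12 higher), surface epithelium (0 of 7 passed), smooth muscle (0 of 6 passed) and red blood cells (0 of 5 passed). The macrophage sum also overlapped, with 1 of 12 markers higher. Most of the theca sum came from Aldh1a1 and Mgarp, named for that share, so it says little of the first 2 theca markers. Cyp17a1 gave 8.62, 124 and 21.6 CPM in WT and 235, 3.66 and 5.46 CPM in Bnc1tr/tr. Insl3 gave 3.83, 4.26 and 4.28 CPM in WT and 4.80, 3.19 and 2.57 CPM in Bnc1tr/tr. Oviduct markers (0 of 9 passed) were highest in Bnc1tr/tr ovary 3, at 555 CPM, where WT spanned 62.1 to 178 CPM. Adipocyte markers (1 of 8 lower and 1 higher) summed to 354, 287 and 82.7 CPM in Bnc1tr/tr ovaries 1, 2 and 3, against 115 to 161 CPM in WT. Lipe, named for its share, gave 98.4, 101 and 79.0 CPM of this in WT and 66.3, 66.8 and 52.6 CPM in Bnc1tr/tr. Adipoq gave 6.13, 0.574 and 10.1 CPM in WT and 51.4, 30.8 and 2.43 CPM in Bnc1tr/tr. Plin1 gave 8.92, 9.58 and 12.7 CPM in WT and 36.4, 23.7 and 15.5 CPM in Bnc1tr/tr. Bnc1tr/tr ovary 3 thus lay within the WT range for Adipoq and above it for Plin1. The part of these tissues in the values of the 8 genes was not tested.

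For each of the 3 genes that varied most over the ovaries, the nearest genes in pattern were sought among 11409 genes of at least 10 CPM, by the root mean square difference of centred log2 CPM over the 6 ovaries. For Scarb1 these were Pdlim4 (0.12), Txndc2 (0.13) and Rhod (0.14). Pdlim4 averaged 201 ± 39.9 CPM in WT and 55.1 ± 5.58 CPM in Bnc1tr/tr (SD, n = 3 each). For Npc2 they were Rab31 (0.045), LOC101056142 (0.053) and Mtss1l (0.057), and Rab31, a small GTPase of vesicle transport, averaged 225 ± 24.3 CPM in WT and 115 ± 8.21 CPM in Bnc1tr/tr. For Lrp8 they were Ccdc126 (0.22), Plekhf1 (0.22) and Trib1 (0.22). Plekhf1 and Trib1 did not pass the edgeR threshold. The distances were smaller for Npc2 than for Lrp8, which varied most of the 8 genes among WT ovaries. All these neighbours were picked for closeness in these same 6 ovaries, so nothing more is read from the distances.

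A wider list of 80 receptors, adaptors, apolipoproteins, plasma enzymes and lysosomal or sterol-transfer genes was examined beside the 8. Of the 71 tested, 5 were lower, 3 were higher and 63 did not pass (11.3% called, beside 7.06% of all genes). The median log2 fold change was 0.018, beside 0.018 over all genes tested, and the values ran from -2.63 to 1.13. This list too was drawn up with results of these data known.

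Of the 16 other tested receptors reported here, 0 were lower and 1 was higher. Sorl1, a sorting receptor, was higher (18.0, 13.4 and 16.6 CPM against 23.3, 22.3 and 23.3 CPM), with an edgeR adjusted p of 0.0492 that became 0.0620 to 0.145 without any 1 ovary. Lrp10 and Lrp5, which had the highest CPM of these receptors on average over all 6 ovaries, had log2 fold changes of -0.39 and 0.36 and did not pass. Cd36, a scavenger receptor related to SR-BI and abundant in fat, gave 15.1, 17.6 and 23.8 CPM in WT and 50.8, 29.0 and 18.0 CPM in Bnc1tr/tr, and is named here after its values were seen. The mutant ovaries had, for Cd36, the order of their adipocyte marker sums, whose part in it was not tested.

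Of 13 adaptors and inhibitors, 0 were lower and 1 was higher. Dab2, an endocytic adaptor that binds the cytoplasmic tails of lipoprotein receptors, gave 121, 123 and 130 CPM in WT and 191, 154 and 171 CPM in Bnc1tr/tr (edgeR adjusted p = 0.0317). Without Bnc1tr/tr ovary 3 or any 1 WT ovary it did not pass, at adjusted p = 0.0819 to 0.136. Lrpap1, the chaperone of the family in the endoplasmic reticulum, had a log2 fold change of -0.26 and did not pass.

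Of 19 apolipoproteins and plasma enzymes, 1 was lower and 1 higher. Lipg, the endothelial lipase that acts on high-density lipoprotein, gave 88.6, 180 and 401 CPM in WT and 52.4, 33.1 and 22.7 CPM in Bnc1tr/tr, a log2 fold change of -2.63 with an SE of 0.55 (edgeR adjusted p = 0.0327). WT ovary 7 was far above the other WT ovaries, and without WT ovary 4, WT ovary 7, Bnc1tr/tr ovary 2 or Bnc1tr/tr ovary 3 the adjusted p was 0.0686 to 0.105. Without WT ovary 7 the log2 fold change was -1.91. Apoa1, the main protein of high-density lipoprotein and so the ligand of SR-BI, gave 42.6, 52.6 and 35.9 CPM in WT and 108, 86.9 and 92.5 CPM in Bnc1tr/tr. Its log2 fold change was 1.13 with an SE of 0.15, it passed in 12 of 12 alternatives, and it ran opposite to that of Scarb1. Clu and Angptl4, which had the highest CPM of this group on average over all 6 ovaries, had log2 fold changes of -0.074 and 0.16 and did not pass.

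Of the 23 tested lysosomal and sterol-transfer genes reported here, 4 were lower and 0 higher, 12 had every WT ovary above every mutant ovary and 1 had every mutant ovary above, and the median log2 fold change was -0.22. Over all genes tested the corresponding shares were 4.19% lower, 2.88% higher, 15.8% with WT above and 15.0% with the mutant above. Star, which moves cholesterol into mitochondria for steroid synthesis, gave 2180, 2565 and 1634 CPM in WT and 151, 689 and 516 CPM in Bnc1tr/tr, a log2 fold change of -2.23 with an SE of 0.49 (edgeR adjusted p = 0.0374). Without Bnc1tr/tr ovary 3 or any 1 WT ovary its adjusted p was 0.0843 to 0.147. Stard4, a soluble sterol carrier, had a log2 fold change of -0.81, Anxa2 of -0.74 and Cd63 of -0.56, and all 3 passed (edgeR adjusted p = 0.0148, 0.0167 and 0.0159). Each missed the threshold without WT ovary 4, at adjusted p = 0.0575, 0.0794 and 0.0934. Anxa2 also did so without WT ovary 1 or 7 (0.0559 and 0.0575), and Cd63 without WT ovary 7 or Bnc1tr/tr ovary 3 (0.0665 and 0.0557). Anxa2 binds phospholipid membranes in many compartments and Cd63 marks late endosomes, so neither is restricted to sterol traffic. Lamp1, the major lysosomal membrane protein, had a log2 fold change of -0.31 and did not pass. Lipa, the lysosomal acid lipase, had a log2 fold change of -0.061 and did not pass, and it is named for its role beside the 8 genes and not by the naming rule.

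**Figure D4:**
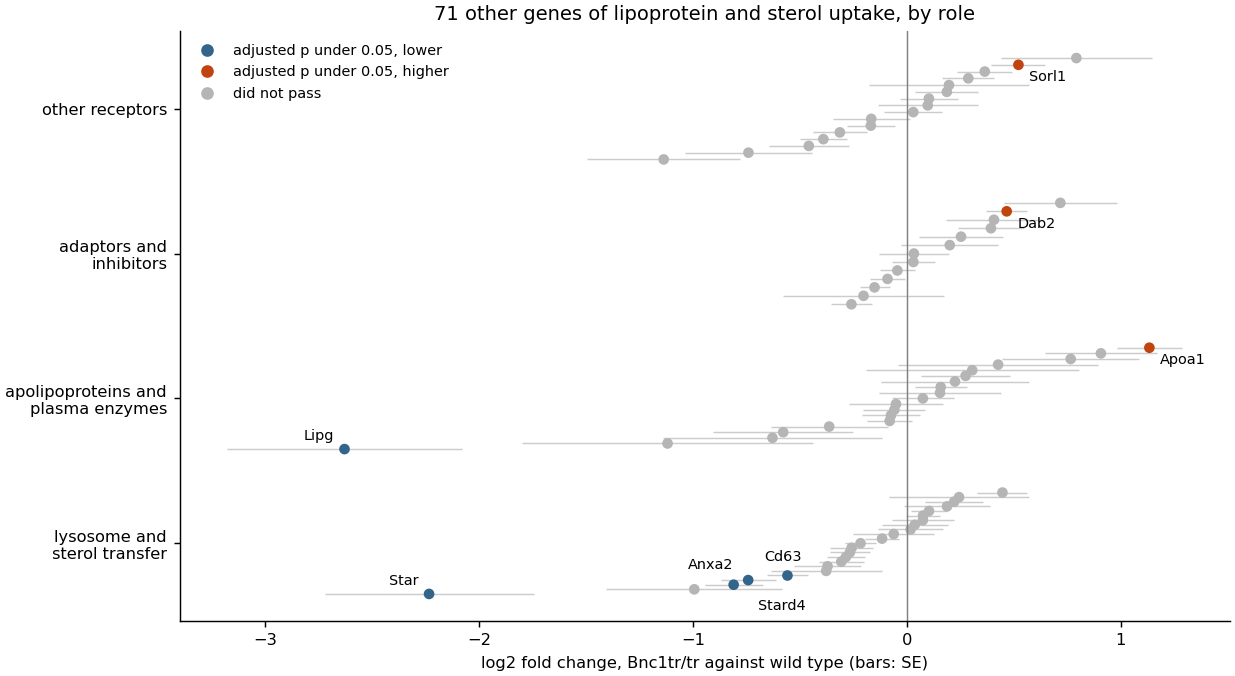
Log2 fold change, Bnc1tr/tr against WT, of 71 other genes of lipoprotein and sterol uptake on the x axis (bars are the SE), grouped by role on the y axis and sorted within each role. Blue points passed the edgeR adjusted p as lower, orange points as higher, and grey points did not pass: 5 were lower, 3 higher and 63 did not pass.

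**Figure D5:**
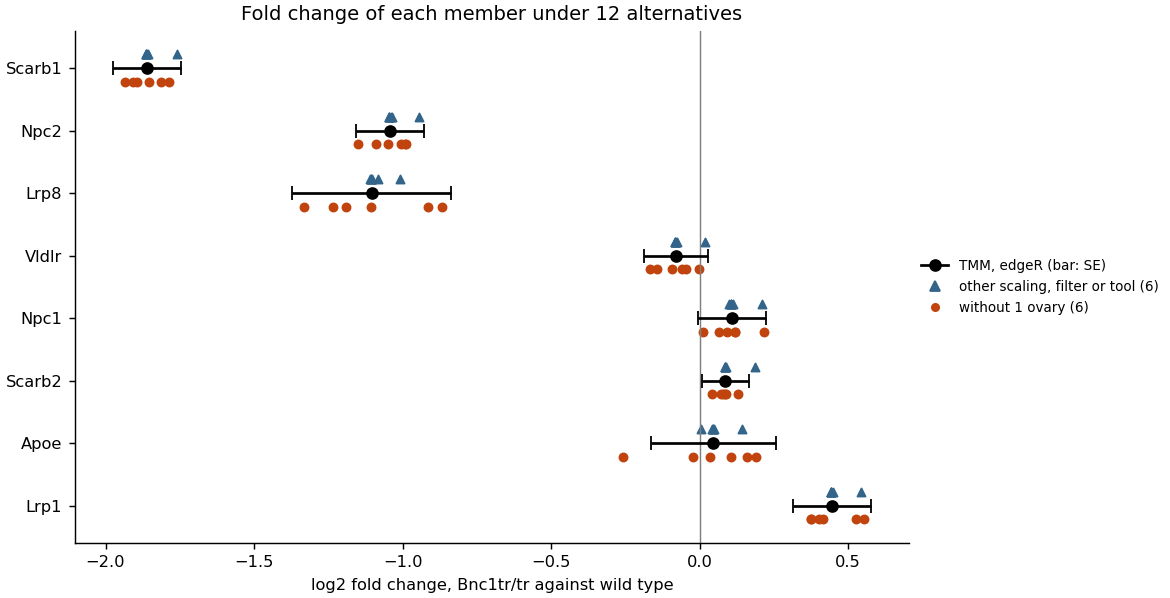
Log2 fold change of each of the 8 genes, Bnc1tr/tr against WT, on the x axis: black points with SE bars are edgeR with TMM scaling, blue triangles the 6 other scalings, filters or tools, and orange points the 6 fits without 1 ovary. Scarb1, Npc2 and Lrp8 stayed below 0 and Lrp1 above 0 throughout, while Apoe and Vldlr crossed 0.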

How the data were processed

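Total RNA of ovarian tissue was sequenced in 6 libraries as single reads on the Ion Proton, and the authors deposited 1 table of raw read counts per gene symbol. The submitters' processing notes name the builds mm10 and Sscrofa10.2 without saying what each was used for. The aligner, the counter, the annotation and the use of strand are not given in the sources used here. The table has no coordinates, so positions and transcript lengths were taken from GENCODE M21 (GRCm38).

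Columns were matched to samples by title. Genes were filtered with filterByExpr (minimum count 10), scaled by TMM and tested in edgeR 4.0.16 (R 4.3.3) by the quasi-likelihood test, WT against Bnc1tr/tr without covariates, with Benjamini-Hochberg adjustment over all 19423 genes tested and a threshold of 0.05. Fold changes are edgeR's, on log2 CPM. DESeq2 1.42.0, limma 3.58.1 (voom), other scalings and filters, and the loss of each ovary in turn were alternatives. The fit was tested on simulated data. The 3 libraries of a genotype are replicates by their labels, and p-values measure the spread between them only. Totals of 25247770 to 34406296 reads keep counting error of the 8 genes at 5.06% or less.

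The 8 genes, the wider list and the marker lists were chosen with earlier results of these data known. Beside the 8, the text names, in each role of the wider list, up to 4 called genes of at least 1 CPM with the largest change and the 2 with the highest level, the 3 genes nearest in pattern to the 3 most variable of the 8, Bnc1, and the first 2 markers of a list; exceptions are stated. Mesd, Angptl8 and Adgre1 were matched by an older symbol. A few genes of the wider list are not reported here and are left out of its counts.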

Additional observations from a re-analysis of the deposited data

How the results depend on the processing

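Scarb1 and Npc2 kept their direction and passed in 12 of 12 alternatives, Lrp8 kept its direction in all and passed in 5, and Lrp1 kept its direction in all and passed in 2. The number of genes called over the whole table was 2420 in DESeq2 and 320 to 1282 on leaving out 1 ovary, lowest without WT ovary 4, against 1372. Calls in the wider list were 1 to 8 on leaving out 1 ovary, also lowest without WT ovary 4, against 8, and calls among the 8 genes were 2 to 3 against 3. The median log2 fold change of the 8 genes, -0.018, became 0.080 with library size alone, 0.034 without WT ovary 7, 0.035 without Bnc1tr/tr ovary 3 and -0.15 without Bnc1tr/tr ovary 2, so its sign carries no direction. Vldlr turned to 0.017 with library size alone. Apoe turned to -0.26 without Bnc1tr/tr ovary 2 and to -0.022 without WT ovary 1. The cause of these changes was not tested. The genotypes share only the replicate number 1, so the replicate numbers gave no pairs, as fewer than 2 match. The study states that it compared littermates, but the labels name no litters, so litter could not enter the fit. The spread between ovaries was larger than the counting error for each of the 8 genes in both genotypes except Scarb2 in WT, with a coefficient of variation of 0.927% and a counting error of up to 2.62%.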
